A study of Mus musculus with 6 samples.

Results

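The S100 calcium-binding proteins were followed in whole colon of NHE3-/- mice. NHE3, the product of the gene Slc9a3, exchanges sodium for protons. Members were 9 named S100 genes, read by every probe set whose platform annotation names that gene alone: 11 of the 45101 probe sets on the array. Of the 9 genes, 8 had such a probe set. S100a11 had none, because its only probe set is also assigned to a pseudogene of S100a11 and to Gm12854, and it was not analysed here. The groups were 3 arrays of NHE3-/- mice and 3 arrays of their NHE3+/+ littermates, all 6 to 8 weeks old and without treatment, on Affymetrix MOE430 2.0 arrays. The kind of Slc9a3 allele, the strain and the number of animals per array are unknown here. No label gives the sex, and the Xist signal that bears on it is given below. No label ties an array to an animal of its own, so p-values measure only the spread between arrays, and this may be technical.

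S100 proteins are small calcium-binding proteins with EF-hand motifs that act mostly as dimers and change the partners they bind when calcium rises. S100a8 and S100a9 encode the subunits of calprotectin, which is abundant in the cytosol of neutrophils, withholds zinc and manganese from microbes, and is measured in stool as a marker of gut inflammation; epithelia can also make it. The other members are intracellular proteins of epithelium and connective tissue: S100a10 partners annexin A2 at the plasma membrane, S100a14 and S100a16 are typical of epithelia, S100a4 is typical of fibroblasts and migrating leukocytes, and S100a6 and S100a13 are expressed in many cell types. In the mouse genome the members lie together on chromosome 3. There S100a8 and S100a9 are neighbours, S100a13, S100a14 and S100a16 follow one another without another protein-coding gene between them, and S100a11 and S100a10 form a separate pair.

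Start-site sequences are shown for the pair that encodes calprotectin, of which S100a8 alone passed the test described below, and for S100a16. Besides S100a8, S100a16 was the only member whose probe sets all passed. They come from RefSeq on GRCm38.p6 and hold the 250 bases before each annotated start site and the first 30 bases from it, 5′ to 3′ along the gene. Capitals mark matches on either strand to the core promoter letters TATAAA, to TTNCNNAA (a C/EBP motif) and to TGANTCA (an AP-1 motif), which did not overlap one another in these windows.
S100a8, chr3:90668821-90669100, plus strand: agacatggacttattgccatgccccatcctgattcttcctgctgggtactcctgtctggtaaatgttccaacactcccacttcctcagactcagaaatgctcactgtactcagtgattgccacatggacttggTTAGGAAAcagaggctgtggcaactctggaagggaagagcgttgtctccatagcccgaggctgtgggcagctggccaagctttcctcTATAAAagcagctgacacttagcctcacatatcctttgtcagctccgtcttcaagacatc
S100a9, chr3:90695692-90695971, minus strand: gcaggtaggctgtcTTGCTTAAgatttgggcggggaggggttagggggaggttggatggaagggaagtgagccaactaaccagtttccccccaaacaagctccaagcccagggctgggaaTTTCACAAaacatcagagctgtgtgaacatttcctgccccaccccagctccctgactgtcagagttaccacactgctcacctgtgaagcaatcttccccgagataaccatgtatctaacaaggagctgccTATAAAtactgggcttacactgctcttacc
S100a16, chr3:90540896-90541175, plus strand: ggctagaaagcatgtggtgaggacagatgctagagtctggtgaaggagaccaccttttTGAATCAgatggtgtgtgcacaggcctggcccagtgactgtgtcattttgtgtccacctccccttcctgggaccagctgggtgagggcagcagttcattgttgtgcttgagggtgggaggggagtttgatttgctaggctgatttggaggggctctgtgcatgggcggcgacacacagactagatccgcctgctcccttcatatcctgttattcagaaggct

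The S100a8 window held a TATAAA from position -30 to -25 relative to the start site and a C/EBP match from -117 to -110 on the opposite strand. The S100a9 window held a TATAAA at the annotated start itself, from position 1 to 6, and C/EBP matches from -236 to -229 and from -130 to -123. Of 32851 promoter windows of 300 bases in the table, 13.6% held TATAAA, 40.7% the C/EBP letters and 7.81% the AP-1 letters. Of the 9 members, 7 had an entry, and TATAAA was in the windows of 3 of them, S100a4, S100a8 and S100a9. The C/EBP letters were in the windows of S100a8 and S100a9 and of no other member. The AP-1 match in S100a16 lay from -192 to -186 at one of its annotated start sites, and the window at its other start site held no match. The S100a11 window also held AP-1 matches, from -136 to -130 and from -38 to -32. The letters TTCNNNGAA (a STAT motif) were in none of the members' windows, against 8.3% of all windows. These matches describe letters and were not tested for binding.

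Array signals were linear intensities scaled by the authors to a common trimmed mean, and array medians lay between 97.8 and 121.4. Log2 signals correlated at 0.965 to 0.973 within NHE3-/-, at 0.969 to 0.970 within NHE3+/+ and at 0.932 to 0.959 between them. The brighter Slc9a3 probe set had 4633.8 ± 1195.8 in NHE3-/- and 6074.8 ± 531 in NHE3+/+ colon (SD, n = 3 each; limma adjusted p = 0.12) and was called lower without NHE3-/- array 1, with NHE3-/- array 3 alone and with the Xist covariate. The dimmer one had 449 ± 173 in NHE3-/- and 266 ± 137 in NHE3+/+ colon (SD, n = 3 each; limma adjusted p = 0.23). Which part of the gene was disrupted is not stated, so either probe set may lie outside it. Xist, a transcript of the inactive X chromosome and so a mark of female tissue, was at 2639, 1929 and 12.3 on NHE3-/- arrays 1, 2 and 3, against 4.3, 8 and 2 on the NHE3+/+ arrays, so NHE3-/- array 3 resembled the NHE3+/+ arrays in this respect. These values are from the Xist probe set of highest mean signal, which also served as the covariate. Another had 1561.9, 1404.5 and 80.8 on NHE3-/- arrays 1, 2 and 3, against 207.7, 175.6 and 142.4 on the NHE3+/+ arrays. A further, dim one had 137.7, 182.8 and 9.5, against 37.6, 14.1 and 19.2. On each of them NHE3-/- arrays 1 and 2 were above the other arrays. By this signal NHE3-/- arrays 1 and 2 hold female RNA and the other arrays do not, or hold little. Sex is thus partly confounded with genotype, and on arrays 1 and 2 their effects cannot be told apart. Among tissue markers, Epcam, an epithelial adhesion molecule, averaged 29386 ± 1801.5 in NHE3-/- and 24998 ± 3317.4 in NHE3+/+ colon (SD, n = 3 each). The smooth muscle actin Acta2 averaged 1104.2 ± 287 in NHE3-/- and 1029.9 ± 105 in NHE3+/+ colon, and the muscle myosin Myh11 132 ± 51.2 in NHE3-/- and 141 ± 39 in NHE3+/+ colon (SD, n = 3 each). In whole tissue, more cells of a type and more RNA per cell cannot be told apart.

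S100a8 was the member that differed most. Its signal was 3033.7, 717.7 and 1356.3 on NHE3-/- arrays 1, 2 and 3, against 59, 46.2 and 41.2 on NHE3+/+ arrays 1, 2 and 3. Every NHE3-/- array lay far above every NHE3+/+ array, but the NHE3-/- arrays differed among themselves by 4.23 times between highest and lowest, against 1.43 times in NHE3+/+. The mean was 1702.6 ± 1196.2 in NHE3-/- and 48.8 ± 9.18 in NHE3+/+ colon (SD, n = 3 each), a ratio of 34.9. Tests were run on log2(signal + 31.4), which understates the change of dim transcripts, with limma over the 27022 probe sets of sufficient mean signal and Benjamini-Hochberg adjustment over all of them at a threshold of 0.05. On that scale S100a8 rose by 4.20 (SE 0.39; limma adjusted p = 0.000116), the fifth largest rise among the probe sets tested. In NHE3+/+ colon its mean log2 value of 6.32 was under the filter at 6.52, so it entered the test through the NHE3-/- arrays. A probe set past the threshold is referred to as called, and S100a8 was also called with no filter (adjusted p = 0.000274). It rose by 4.12 with NHE3-/- array 3, the array without Xist signal, alone against the NHE3+/+ arrays (adjusted p = 0.000487), and by 4.03 with the Xist signal as a covariate (adjusted p = 0.00338). The probe set is of a kind (suffix _s_at) whose probes can match more than 1 transcript.

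S100a9, the calprotectin partner, was dim on all arrays. Its signal was 146.8, 78.2 and 50.6 on NHE3-/- arrays 1, 2 and 3, against 30.1, 41.1 and 28.1 on NHE3+/+ arrays 1, 2 and 3. The groups did not overlap, and array 1 was highest among the NHE3-/- arrays for both subunits, while the lowest was array 2 for S100a8 and array 3 for S100a9. The mean was 91.9 ± 49.5 in NHE3-/- and 33.1 ± 7 in NHE3+/+ colon (SD, n = 3 each), a ratio of 2.78. Over all 6 arrays its mean signal was below the filter, so it was not among the probe sets tested. In the fit without a filter its log2 fold change was 0.86 (SE 0.37, 95% interval 0.04 to 1.69; limma adjusted p = 0.24), which did not pass. It was 0.35 (adjusted p = 0.745) with NHE3-/- array 3 alone, 0.56 (adjusted p = 0.502) without NHE3-/- array 1, and 0.28 (adjusted p = 0.828) with the Xist covariate.

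**Figure D1:**
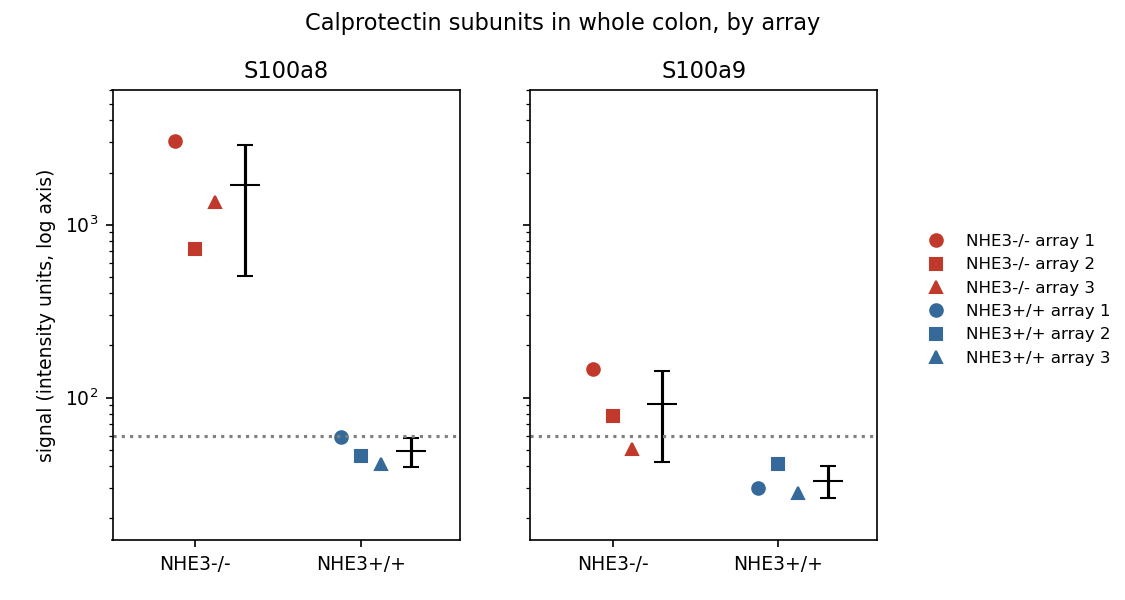
Signal of S100a8 (left) and S100a9 (right) on each array, on a log axis in intensity units; black marks give the mean and SD of 3 arrays and the dotted line the signal of 60.2 that corresponds to the filter. S100a8 reached 717.7 to 3033.7 in NHE3-/- colon and stayed at 41.2 to 59 in NHE3+/+ colon, while S100a9 lay between 50.6 and 146.8 in NHE3-/- and between 28.1 and 41.1 in NHE3+/+ colon.

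The calprotectin subunits were also set against each other within arrays. Within each array, log2(signal + 31.4) of S100a8 exceeded that of S100a9 by 4.10, 2.77 and 4.08 on NHE3-/- arrays 1, 2 and 3, against 0.56, 0.10 and 0.29 on NHE3+/+ arrays 1, 2 and 3. These within-array differences did not overlap between genotypes, and their means differed by 3.34. An exact permutation test gave p = 0.1 (two-sided; 0.3 adjusted over 3 such comparisons), and 0.1 is the smallest that 3 against 3 arrays allow, so this comparison could not pass. S100a9 was below the filter, and both subunits were close to the pseudocount of 31.4 in NHE3+/+ colon. The responses of the probe sets to RNA amount are not known, so the difference between them is not a ratio of the transcripts.

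Of the epithelial members, S100a16 rose on both of its probe sets. On the brighter, the signal was 8348.6, 10706.5 and 11065.2 on NHE3-/- arrays 1, 2 and 3, against 5688.3, 5591.2 and 5800.4 on NHE3+/+ arrays 1, 2 and 3. All NHE3-/- arrays were above all NHE3+/+ arrays, and the NHE3+/+ arrays were within 1.04 times of each other. The mean was 10040.1 ± 1475.8 in NHE3-/- and 5693.3 ± 105 in NHE3+/+ colon (SD, n = 3 each), and the log2 fold change was 0.80 (SE 0.12; limma adjusted p = 0.00188). The dimmer probe set averaged 8205.4 ± 1188.6 in NHE3-/- and 5103.8 ± 428 in NHE3+/+ colon (SD, n = 3 each), and the log2 fold change was 0.67 (SE 0.12; limma adjusted p = 0.00663). The brighter kept its call in all 15 alternative settings tried. The dimmer, of a kind (suffix _x_at) that can bind unrelated transcripts, lost it in 1, the fit without a mean-variance trend (adjusted p = 0.0662).

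S100a14, the neighbour of S100a16 on chromosome 3, had signals of 2962, 4417.3 and 4417 on NHE3-/- arrays 1, 2 and 3, against 2856.6, 3030.1 and 2003.9 on NHE3+/+ arrays 1, 2 and 3. NHE3-/- arrays 2 and 3 were above all NHE3+/+ arrays, and NHE3-/- array 1 was not. The log2 fold change of 0.57 (SE 0.19, 95% interval 0.17 to 0.98; limma adjusted p = 0.0718) did not pass the threshold. It passed without NHE3-/- array 1 (0.76, adjusted p = 0.0262) and with array medians set equal (0.69, adjusted p = 0.0312). The within-array difference of S100a14 and S100a16 was -1.36 in NHE3-/- and -1.13 in NHE3+/+ colon on average, and the genotypes were not distinguished (difference -0.23, exact permutation test, two-sided p = 0.4; 0.4 adjusted over the 3 comparisons).

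S100a10, the annexin A2 ligand, was read by 3 probe sets that did not give the same answer. The brightest had 23592.9, 25546.2 and 26993.2 on NHE3-/- arrays 1, 2 and 3, against 19830.2, 20565.7 and 17257.2 on NHE3+/+ arrays 1, 2 and 3, with no overlap. Its log2 fold change of 0.40 (SE 0.10; limma adjusted p = 0.0307) passed. The call was lost in 9 of 15 alternative settings, among them without NHE3+/+ array 1 (adjusted p = 0.0562) or 3 (0.116), without NHE3-/- array 2 (0.0784) or 3 (0.0918), with NHE3-/- array 3 alone (0.0859), and in the fit without a filter (0.0863). The second probe set, also with the suffix _x_at, averaged 18837.2 ± 558 in NHE3-/- and 17349 ± 1076.6 in NHE3+/+ colon (SD, n = 3 each), and the log2 fold change was 0.12 with a 95% interval from -0.08 to 0.32. Its groups did not overlap either, but by a narrow margin, with 18229.8 lowest in NHE3-/- and 17992.9 highest in NHE3+/+ colon. The third averaged 1214.5 ± 157 in NHE3-/- and 1348.6 ± 454 in NHE3+/+ colon (SD, n = 3 each), and the log2 fold change was -0.10 with a 95% interval from -0.59 to 0.40. Neither of these passed (limma adjusted p = 0.435 and 0.819).

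None of the stromal or broadly expressed members passed the test. S100a6 had 24519, 25576.3 and 29140.9 on NHE3-/- arrays 1, 2 and 3, against 21494.1, 24415.8 and 20581.9 on NHE3+/+ arrays 1, 2 and 3, so the groups were separate but by a narrow margin. Its log2 fold change was 0.25 (SE 0.11, 95% interval 0.02 to 0.49; limma adjusted p = 0.154), and it passed with array medians set equal (0.37, adjusted p = 0.0324). S100a13, a carrier in the export of proteins that lack a secretion signal, had 2571.2, 2181 and 3623.6 on NHE3-/- arrays 1, 2 and 3, against 1950, 1825.9 and 2161.1 on NHE3+/+ arrays 1, 2 and 3. The groups did not overlap, array 3 was highest in each, and the log2 fold change was 0.46 (SE 0.17, 95% interval 0.09 to 0.83; limma adjusted p = 0.102). S100a13 passed without NHE3-/- array 2 (0.62, adjusted p = 0.0421), with NHE3-/- array 3 alone (0.87, adjusted p = 0.0182) and with the Xist covariate (0.89, adjusted p = 0.0141).

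S100a4 was dim and scattered. Its signal was 103, 76.4 and 8 on NHE3-/- arrays 1, 2 and 3, against 85, 135.1 and 56.1 on NHE3+/+ arrays 1, 2 and 3. The groups overlapped, and NHE3-/- array 3 stood below all others. The log2 fold change was -0.52 (SE 0.47, 95% interval -1.55 to 0.50; limma adjusted p = 0.505), and it was 0.01 without NHE3-/- array 3. It was -1.60 with NHE3-/- array 3 alone (adjusted p = 0.1) and -1.70 with the Xist covariate (adjusted p = 0.0596), and neither passed. The within-array difference of S100a4 and S100a6 was -8.31 in NHE3-/- and -7.54 in NHE3+/+ colon on average (difference -0.78, exact permutation test, two-sided p = 0.4; 0.4 adjusted over the 3 comparisons).

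**Figure D2:**
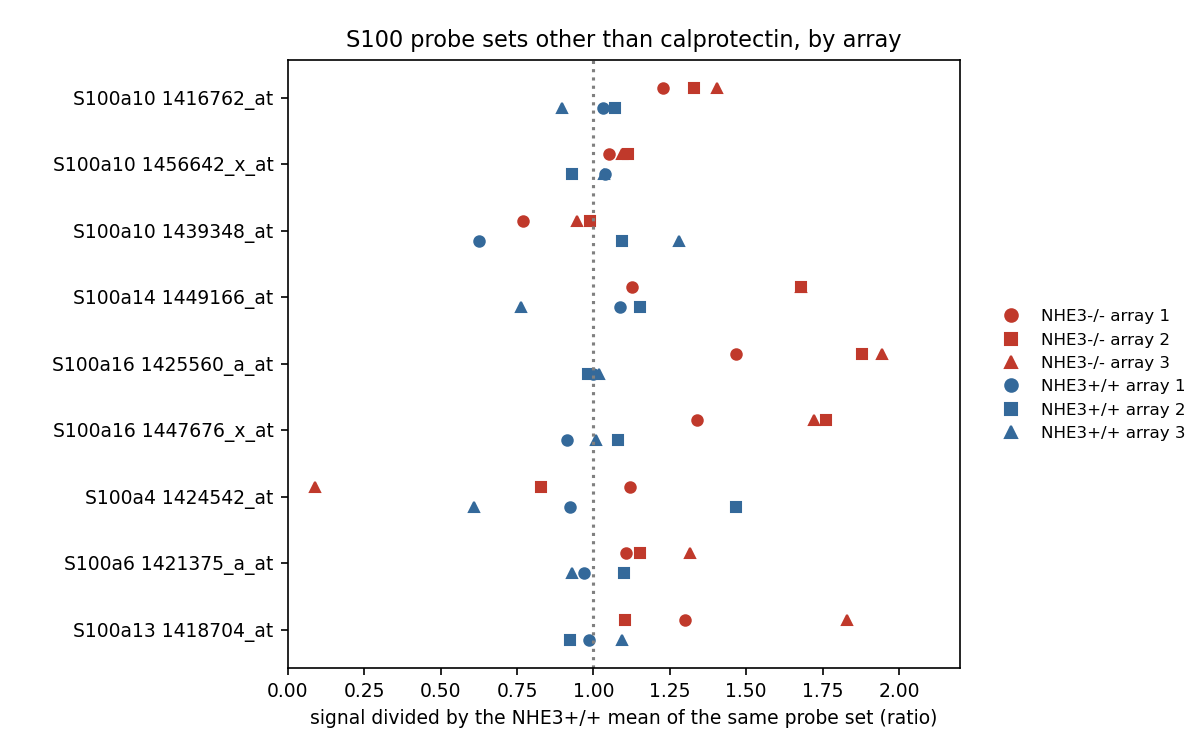
Signal on each array divided by the NHE3+/+ mean of the same probe set, for the 9 probe sets other than those of S100a8 and S100a9; a value of 1 (dotted line) equals the NHE3+/+ mean, and the marks of S100a14 for NHE3-/- arrays 2 and 3 coincide. Both S100a16 probe sets show all NHE3-/- arrays to the right of all NHE3+/+ arrays. By smaller margins, so do S100a6, S100a13 and the brightest and second S100a10 probe sets, but not the third. The S100a4 mark of NHE3-/- array 3 lies at the far left.

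In all, 4 of the 10 S100 probe sets tested passed as higher in NHE3-/- colon, naming 3 genes (S100a8, S100a10 and S100a16), and 0 passed as lower (0 at an unadjusted p under 0.05 in the limma fit). Over all probe sets tested 4.97% passed as higher, 6.24% as lower and 11.2% in either direction. Groups did not overlap for 7 of the 10, all higher in NHE3-/-, against 32.3% of all probe sets tested in either direction and 12.2% in the higher direction. Probe sets of 1 gene share its transcript, so the 10 are not independent. S100a8 could pass the filter only through its NHE3-/- level, and S100a4 only through its NHE3+/+ level. The median log2 fold change of all probe sets tested was -0.10 on the deposited scale and 0.01 with array medians set equal. With it 6 S100 probe sets passed as higher. Over all probe sets tested it gave 1592 higher and 739 lower, against 1342 higher and 1685 lower on the deposited scale.

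**Figure D3:**
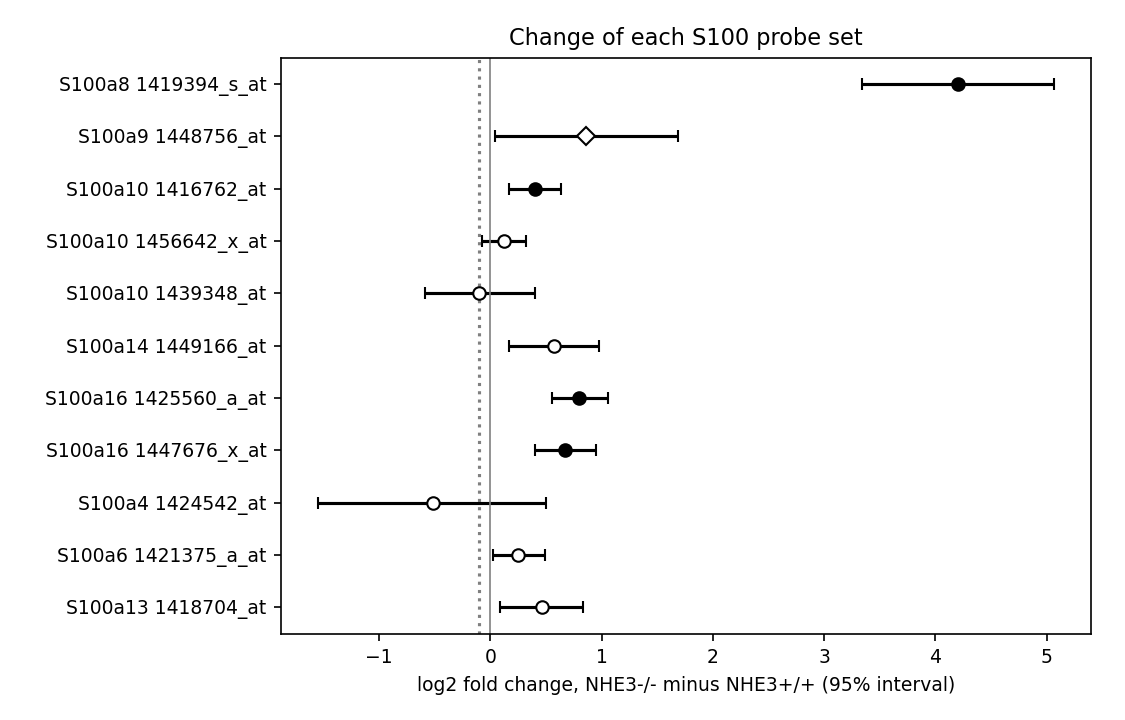
Log2 fold change, NHE3-/- minus NHE3+/+, of each S100 probe set on the log2(signal + 31.4) scale with its 95% interval; filled marks passed the limma threshold, open circles did not, and the open diamond is S100a9, taken from the fit without a filter. The dotted line is the median of all probe sets tested, -0.10. S100a8 stands at 4.20 and every other probe set lies between -0.52 and 0.86.

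The 5 other S100 genes with probe sets of their own, 7 probe sets in all, gave 1 further call. Only those of S100a1 and S100g were above the filter and tested. Over all probe sets tested, 4.97% were called higher. S100a1, a calcium sensor best known in muscle and the gene next to S100a13, had 7613.6 ± 1553.9 in NHE3-/- and 4619.1 ± 144 in NHE3+/+ colon (SD, n = 3 each) on its brighter probe set, a log2 fold change of 0.70 (SE 0.13; limma adjusted p = 0.00784). Like that of S100a8, this probe set is of a kind (suffix _s_at) whose probes can match more than 1 transcript. The other S100a1 probe set had a log2 fold change of 0.46 (limma adjusted p = 0.104) and was not called. S100g, the intestinal calcium carrier calbindin-D9k, had 2234.4 ± 573 in NHE3-/- and 1318.4 ± 823 in NHE3+/+ colon (SD, n = 3 each), and its log2 fold change of 0.89 did not pass (limma adjusted p = 0.116). It was 1.35 and passed without NHE3+/+ array 1 (adjusted p = 0.00637), and it was 0.53 without NHE3+/+ array 3 (adjusted p = 0.339), 0.50 with NHE3-/- array 3 alone (adjusted p = 0.579) and 0.46 with the Xist covariate (adjusted p = 0.616). S100a3, S100a5 and S100b were below the filter.

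Neutrophils are the richest known source of calprotectin. Of 16 neutrophil markers with a probe set of their own, 11 had a higher mean in NHE3-/- colon, and the groups did not overlap for 4, all higher in NHE3-/-, against 12.2% of all genes higher and 16.6% lower with no filter. The median log2 fold change of the 16 with no filter was 0.23, against -0.04 for all genes. Of the 16, 10 were below the filter, among them the granule proteins Mpo, Elane, Prtn3 and Camp and the receptors Cxcr2 and Csf3r. Of the 6 tested, 4 (Ltf, Lcn2, Mmp9 and Fpr2) were above the filter in NHE3-/- colon alone, so they could pass it only through their high group, and the count of 1 higher and 0 lower among the 6 is given as a description. The marker called was Ltf, lactoferrin, an iron-binding protein of neutrophil granules that epithelia also secrete, with signals of 409.9, 399 and 238.8 on NHE3-/- arrays 1, 2 and 3, against 22.1, 42.7 and 47.2 on NHE3+/+ arrays 1, 2 and 3 (log2 fold change 2.45, SE 0.29; limma adjusted p = 0.000479). Ltf was also called with no filter. Ltf and S100a8 were both highest on NHE3-/- array 1, and Mpo on array 3. The collagenase Mmp8 averaged 38.9 ± 19.5 in NHE3-/- and 16 ± 6 in NHE3+/+ colon, and the formyl peptide receptor Fpr2 88.5 ± 14.8 in NHE3-/- and 47.4 ± 35.2 in NHE3+/+ colon (SD, n = 3 each), both without overlap. Neither was called (limma adjusted p = 0.381 with no filter and 0.28). The gelatinase Mmp9 averaged 131 ± 4.55 in NHE3-/- and 71.7 ± 65.4 in NHE3+/+ colon (SD, n = 3 each), with overlap (limma adjusted p = 0.215). Mpo, myeloperoxidase, had 13.9, 6.8 and 110.5 on NHE3-/- arrays 1, 2 and 3, against 48, 82.2 and 20.3 on NHE3+/+ arrays 1, 2 and 3, and Camp, the cathelicidin, was between 7.6 and 21.7 in NHE3-/- and between 6.1 and 27.7 in NHE3+/+ colon. The summed signal of the 16 markers ran from 1307 to 1442 in NHE3-/- and from 697 to 911 in NHE3+/+ colon, and without Ltf from 908 to 1110 in NHE3-/- and from 663 to 868 in NHE3+/+ colon. In this and the later sums the brighter probe sets weigh most, here Ltf, Il1b, Mmp9 and Lcn2 in NHE3-/- colon. Such a sum does not measure the number of cells. None of the 16 was listed at 0, and no detection calls were used.

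Lcn2, an iron-withholding protein of neutrophils and inflamed epithelium, averaged 111 ± 38.9 in NHE3-/- and 52 ± 46.6 in NHE3+/+ colon (SD, n = 3 each; log2 fold change 0.87, limma adjusted p = 0.196). Il1b, the cytokine interleukin-1 beta, averaged 175 ± 36.3 in NHE3-/- and 82.9 ± 19.5 in NHE3+/+ colon (SD, n = 3 each; log2 fold change 0.85, limma adjusted p = 0.0641). Neither passed, and for Lcn2 NHE3+/+ array 2 lay within the NHE3-/- range. Monocyte and macrophage markers, which mark the other myeloid cells that can carry calprotectin, gave 0 higher and 0 lower of 11 tested (0 and 0 at an unadjusted p under 0.05 in the limma fit), against 6.38% higher and 7.51% lower of all genes through their brightest probe set. Their median was 0.00, with summed signals from 3181 to 4070 in NHE3-/- and from 3312 to 6245 in NHE3+/+ colon. The part of myeloid cells in the S100a8 result was not tested.

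**Figure D4:**
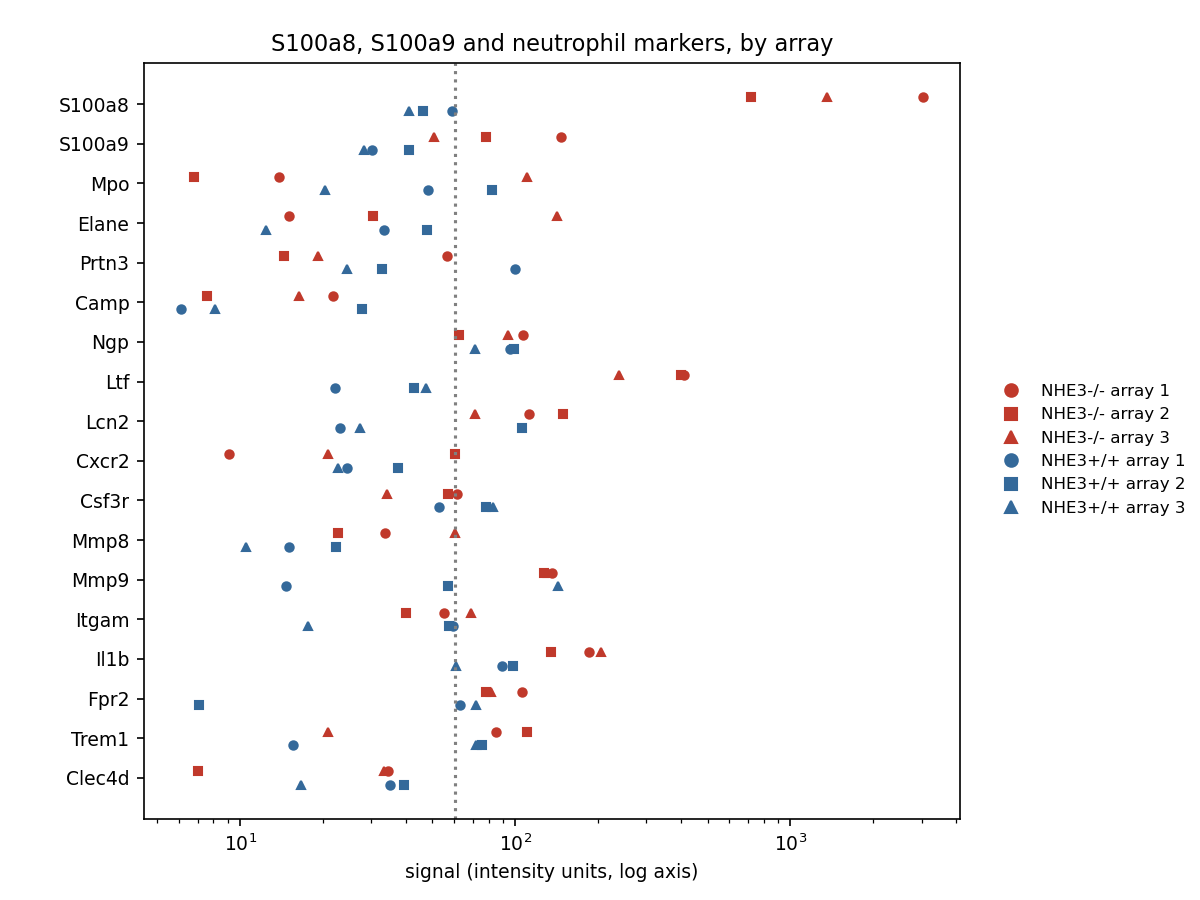
Signal on each array, in intensity units on a log axis, for S100a8, S100a9 and the 16 neutrophil markers with a probe set of their own; the dotted line is the signal of 60.2 that corresponds to the filter. Levels of different probe sets cannot be compared. S100a8 and Ltf separate the genotypes, Ltf at 238.8 to 409.9 in NHE3-/- against 22.1 to 47.2 in NHE3+/+, as do Il1b, Fpr2 and Mmp8 by smaller margins, and the other 12 markers overlap between genotypes.

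Among genes known to control calprotectin transcription or to receive the cytokines that raise it, 5 of 14 tested rose and 0 fell, against 6.38% higher and 7.51% lower of all genes through their brightest probe set. The list was chosen with earlier results of these data known, so this count is given as a description. Cebpd, a C/EBP transcription factor of acute inflammation, had 2697.6, 2733.1 and 2688.8 on NHE3-/- arrays 1, 2 and 3, against 1014.9, 1215.1 and 1026.6 on NHE3+/+ arrays 1, 2 and 3, a log2 fold change of 1.30 (SE 0.11; limma adjusted p = 7.88e-05). Osmr, the oncostatin M receptor, averaged 246 ± 31.2 in NHE3-/- and 79.4 ± 35.9 in NHE3+/+ colon (log2 fold change 1.37, SE 0.27; limma adjusted p = 0.0103), and Hif1a, the oxygen-sensitive factor, 9063.9 ± 942 in NHE3-/- and 5621.2 ± 415 in NHE3+/+ colon (0.68, SE 0.11; limma adjusted p = 0.00299). Another Hif1a probe set had 0.32 and was not called (limma adjusted p = 0.123). Il22ra1, the epithelial receptor chain for interleukin-22, had 0.72 (limma adjusted p = 0.0321) and Nfkbiz, a nuclear cofactor of NF-kappaB, 0.47 (limma adjusted p = 0.0249). The myeloid factor Spi1 (-0.10), Cebpb (-0.12), Cebpa (-0.10) and Stat3 (0.31) were among those that did not pass. Il22ra1 lost its call in 10 of 15 alternatives, Nfkbiz in 8 and Osmr in 2, the Xist covariate among them. Hif1a lost its call in 1, the fit without a mean-variance trend, and Cebpd in 0. Of the 14, 2 passed with the Xist covariate, and 3 without NHE3+/+ array 1, NHE3+/+ array 2 or NHE3-/- array 1. The median of the 14 was 0.23, against -0.07 for all genes through their brightest probe set.

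The list of receptors of extracellular S100 proteins also held Plgrkt, a plasminogen receptor. Of the 10 tested, 2 rose, Cd14 and Plgrkt, and 1 fell, against 6.38% higher and 7.51% lower of all genes. Cd14, the coreceptor of Tlr4, had 3796.2, 5013.5 and 3127.7 on NHE3-/- arrays 1, 2 and 3, against 1389.6, 1368 and 1290.6 on NHE3+/+ arrays 1, 2 and 3, a log2 fold change of 1.51 (SE 0.15; limma adjusted p = 0.000204). Plgrkt rose by 0.55 (SE 0.11, limma adjusted p = 0.0114), a call lost in 4 of 15 alternatives, the Xist covariate among them. Alcam, an adhesion molecule reported to bind S100 proteins, had -0.61 (SE 0.15; limma adjusted p = 0.0237), a call lost in 8 of 15 alternatives. Tlr4 itself averaged 501 ± 72.1 in NHE3-/- and 400 ± 45 in NHE3+/+ colon (SD, n = 3 each; log2 fold change 0.30, limma adjusted p = 0.275). Ager, the receptor RAGE, was below the filter. The median of the 10 was 0.09.

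Intracellular S100 partners gave 0 higher and 0 lower of 13 tested (1 higher and 0 lower at an unadjusted p under 0.05 in the limma fit), against 6.38% higher and 7.51% lower of all genes, with a median of -0.01. Anxa2, annexin A2, which binds S100a10, had 22315.7, 21929.5 and 25010.4 on NHE3-/- arrays 1, 2 and 3, against 18337.1, 20197.2 and 17331.2 on NHE3+/+ arrays 1, 2 and 3. The groups did not overlap, and its log2 fold change of 0.31 (SE 0.10; limma adjusted p = 0.0735) was below the 0.40 of the brightest S100a10 probe set; it passed with array medians set equal. The annexin Anxa1, a partner of S100a11, had 0.26 (limma adjusted p = 0.203), the S100a6 partner Cacybp -0.25 (limma adjusted p = 0.289), and the S100a4 partner Myh9, nonmuscle myosin, -0.30 (limma adjusted p = 0.276).

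Markers of the tissues that carry the remaining members were set beside them, and their counts stand against 6.38% higher and 7.51% lower of all genes through their brightest probe set. Of 15 epithelial markers tested, 2 rose (Elf3 at 0.52 and Vil1 at 0.41) and 2 fell (Krt18 at -0.81 and Cdx2 at -0.58). The median of the 15 was 0.23, against -0.07 for all genes tested through their brightest probe set. Their summed signals ran from 311544 to 366391 in NHE3-/- and from 285632 to 335787 in NHE3+/+ colon. Of 14 fibroblast and matrix markers, 0 rose and 1 fell, Vim (-0.86, SE 0.19; limma adjusted p = 0.0163), and the sum ran from 5480 to 6616 in NHE3-/- and from 6293 to 8137 in NHE3+/+ colon. The median of these 14 was -0.30. Smooth muscle markers gave 0 calls of 6 tested and glial and neuronal markers 0 of 3 (at an unadjusted p under 0.05 in the limma fit, 0 and 0). Their medians were -0.04 and 0.44. Among the glial and neuronal markers tested, Uchl1 was above the filter in NHE3-/- colon alone. With no filter the median of the 6 glial and neuronal markers on the array was 0.36. Of 3 adipocyte markers tested, Fabp4 (-2.08) and Adipoq (-1.77) fell and Cidec (0.97) rose. Adipoq was above the filter in NHE3+/+ colon alone, so it passed the filter only through its high group, and all 3 lost their calls with no filter. All these log2 fold changes are from the limma fit, and only the Krt18 call among them held in all 15 alternatives. Their part in the S100 results was not tested.

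Genes whose pattern was most like calprotectin were found by Pearson's r over the 6 arrays with the mean log2 value of S100a8 and S100a9, among 12552 genes through their brightest probe set. They were Zbtb16, a transcription factor with zinc fingers (r = 0.999), Ppp2r3c, a phosphatase subunit (0.996), Mov10, an RNA helicase (0.995), AU040320 (0.995) and Rdh10, a retinol dehydrogenase (0.992). Zbtb16 had 686.5, 333.1 and 370.6 on NHE3-/- arrays 1, 2 and 3, against 120, 103.4 and 97.2 on NHE3+/+ arrays 1, 2 and 3, so that it was highest, like S100a8, on array 1 of each genotype. These r values come from 6 arrays that share their genotype split, and 508 genes had r above 0.9. Among the members, r was 0.81 for S100a16 and S100a10, 0.66 for S100a6 and S100a13, 0.57 for S100a14 and -0.23 for S100a4. Of the 12552 genes, 1202 had a higher r than S100a16 and 1232 a higher r than S100a10. For S100a6, S100a13, S100a14 and S100a4 these counts were 2129, 2132, 2658 and 6513.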

How the data were processed

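The authors deposited linear intensity values, 1 per array and probe set, from single-label Affymetrix MOE430 2.0 arrays of total colon RNA, per the labels' protocols. GCOS, Affymetrix's array software, is named by the submitters' processing notes without a version; its settings are unknown here. The authors' scaling shows in the values: each array's mean is 500 once the top and bottom 2% are trimmed. Precision is limited by the 3 arrays per genotype; arrays have no read depth.

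From these, log2(signal + 31.4) was computed, where 31.4 is the 25th percentile over every array's signals. The 64 array controls and probe sets of low signal (mean log2 value over the 6 arrays below 6.52, the 40th percentile) were set aside, which left 27022 to test for genotype alone, two-sided, in limma 3.58.1 under R 4.3.3. The functions were lmFit and eBayes with a trend of variance on mean signal. Benjamini-Hochberg adjustment ran over all of them at 0.05, and SE stands for limma's standard error. Within-array differences used exact permutation tests in scipy 1.17.1. Tested on simulated data (27022 probe sets, 200 of them changed), recovery was 43% for log2 changes of 1 and 80% for log2 changes of 2, with 7 of 130 calls false. In the data 11.2% of probe sets were called, a larger share than was changed there, so these rates need not hold for the data.

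The platform annotation supplied gene names: 34958 probe sets have 1 gene, 932 have several and 9211 have none; current symbols came from RefSeq (GRCm38.p6) for 34754 of the 34958. For list genes the brightest probe set (mean log2 signal) was used, and those read only by shared probe sets, or by none, were not analysed here. The text names all S100 members with all their probe sets, the largest called changes of each list, and the 5 genes most like calprotectin; further list genes were named after their values were seen. The members and lists were chosen with earlier results of these data known, so their counts of calls are descriptions and not independent support. Alternatives changed the pseudocount, the filter, the scaling, the variance model, the arrays included, a replicate block and an Xist covariate; those for S100a9 without a filter were chosen after seeing the data.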

Additional observations from a re-analysis of the deposited data

How the results depend on the processing

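S100a8 and the brighter S100a16 probe set stayed past the threshold in all 15 alternatives, with log2 fold changes from 3.38 to 4.87 and from 0.65 to 0.98. The count of S100 probe sets called higher, 4, was 2 without a mean-variance trend, 3 with the replicate block and 3 to 5 with 1 array left out; none was called lower in any of the 15 (of the 2 with negative values, neither had an unadjusted p under 0.05 in the limma fit of all arrays, and no other tool was run). The brightest S100a10 probe set (0.40) lost its call without a filter (0.40), with the replicate block (0.40, adjusted p = 0.0545), without the trend (0.40), with the Xist covariate (0.50), with NHE3-/- array 3 alone (0.49) and on leaving out any of 4 single arrays (0.33 to 0.45 over all 6 such fits). The dimmer S100a16 probe set (0.67) did so without the trend. Values that changed sign were those of the second S100a10 probe set with quantile normalization (-0.04), the third with medians set equal (0.02), with the Xist covariate (0.00), without NHE3+/+ array 3 (0.11) or without NHE3-/- array 1 (0.01; -0.39 to 0.11 with each array left out in turn), and S100a4 without NHE3-/- array 3 (0.01; -0.87 to 0.01 with each array left out in turn). None of these was called, and the causes were not tested. S100a9 without a filter ran from 0.28 to 1.33 over 13 further settings and was called in none; leaving out 1 array gave 0.56 to 1.12. Over all probe sets, 1342 were called higher and 1685 lower; without the trend 511 and 558, with NHE3-/- array 3 alone 767 higher, with medians set equal 739 lower, and with 1 array left out 839 to 1211 higher and 774 to 1385 lower. Array numbers did not pair the arrays: deviations of same-numbered arrays from their group means correlated at 0.0264, -0.0375 and 0.00343. The replicate block gave 1156 higher and 1384 lower, and with it S100g passed (0.89, adjusted p = 0.0152). Of the lists, neutrophil markers gave 2 higher with medians set equal or quantile normalization, and regulators of calprotectin gave 2 higher without the trend and 3 through each gene's probe set of median change. Where 1 array stood for NHE3-/-, it was assumed to vary like the NHE3+/+ arrays.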
